A study of Mus musculus with 6 samples.

Results

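The ubiquitin-conjugating enzymes (symbols Ube2 followed by a letter) and the ubiquitin-specific proteases (symbols Usp followed by a number) were taken from the gene tables by symbol alone, and no measured value was used to choose them. A gene name in the tables can list several symbols, and each was read on its own; 1 USP symbol is not analysed here. The rule gave 94 loci, which summed to 90 entries of 49415 named entries in all, 43 of them Ube2 and 47 Usp. The data are RNA sequencing values of mouse embryonic stem cells derived from the blastocyst, of strain C57BL/6J. The study has 3 groups of 2 libraries each: cells kept for 5 days in 1 µM VD3 (1α,25-dihydroxyvitamin D3, the active hormone made from vitamin D) with 100 µM MM-401, which blocks the histone methyltransferase MLL1; cells kept for 5 days in 1 µM VD3; and untreated cells. All groups carried the genotype Mll1fl/fl; Cre-ER TM, and no tamoxifen is named in the labels. No group received MM-401 alone. All cells grew with leukemia inhibitory factor on mouse embryonic fibroblast feeder cells, and the labels list both 15% fetal calf serum and 20% KSR for every library, so a difference in medium between groups cannot be told apart from the treatment.

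The tables hold 1 pooled column per group, so no spread between libraries stands behind any value below and no test was possible. The column names of the untreated and the VD3 plus MM-401 pools carry characters that the labels do not explain, and all comparisons made here rest on reading those names as these groups. The pools held 73499639 (VD3 plus MM-401), 73636342 (VD3) and 62284598 (untreated) estimated counts. All 10 pluripotency markers on a list of known ones were at 5 FPKM (fragments per unit of transcript length and of depth) or more in every pool. Of 12 fibroblast markers, 10, 8 and 8 were under 1 FPKM in the VD3 plus MM-401, VD3 and untreated pools, with summed levels of 14.1, 23.2 and 15.6 FPKM. In bulk RNA, fewer cells of a type and less RNA per cell cannot be told apart.

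Ubiquitin is activated by an E1 enzyme, passed to the active-site cysteine of an E2 (ubiquitin-conjugating) enzyme, and joined to a target protein with the help of an E3 ligase. Deubiquitinases cut it off again, and the USP family is the largest group of them, with a catalytic cysteine in a conserved box at the start of the protease domain. In embryonic stem cells the balance of both activities is known to act on the turnover of pluripotency factors and on the ubiquitin that sits on histones.

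The catalytic cysteine is the feature that most members of both families share, and the stretches around it are shown for paralogues whose levels lay on opposite sides of untreated cells (Usp4 and Usp15), for USP genes near either end of the differences (Usp5 and Usp9x), and for a high and a middle E2 (Ube2c and Ube2n). Each is 90 coding bases of the longest coding transcript in GENCODE M21 (build GRCm38, the sequence of mm10), 5′ to 3′ on the coding strand, and the capitals mark the codon of the cysteine.
Usp4: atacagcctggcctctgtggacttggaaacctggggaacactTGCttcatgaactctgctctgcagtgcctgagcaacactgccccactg
Usp15: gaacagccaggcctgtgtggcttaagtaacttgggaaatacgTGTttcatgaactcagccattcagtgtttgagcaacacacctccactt
Usp5: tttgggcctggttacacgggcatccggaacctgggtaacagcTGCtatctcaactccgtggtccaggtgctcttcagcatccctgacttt
Usp9x: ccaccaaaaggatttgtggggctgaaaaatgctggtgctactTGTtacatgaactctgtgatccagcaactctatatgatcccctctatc
Ube2c: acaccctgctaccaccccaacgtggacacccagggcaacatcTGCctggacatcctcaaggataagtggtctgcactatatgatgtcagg
Ube2n: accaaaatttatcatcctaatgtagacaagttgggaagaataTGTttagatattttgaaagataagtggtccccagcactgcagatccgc
The Usp4 stretch lies in exons 8 and 9 of 22 at chr9:108366813-108367842 on the plus strand, and the Usp15 stretch in exons 8 and 9 of 22 at chr10:123133106-123146859 on the minus strand. The stretches of Usp5 (exon 8 of 20, chr6:124822534-124822623, minus strand) and Usp9x (exon 31 of 45, chrX:13145177-13145266, plus strand) each lie within 1 exon. That of Ube2c lies in exon 4 of 6 at chr2:164771935-164772024, and that of Ube2n in exons 2 and 3 of 4 at chr10:95541391-95541666, both on the plus strand. Where a stretch crosses an exon border, the coordinates include the intron. Usp4 and Usp15 share 66 of these 90 bases (73.3%), and their stretches hold 55.6% and 46.7% G and C. The G and C share of the others was 55.6% in Usp5, 44.4% in Usp9x, 54.4% in Ube2c and 37.8% in Ube2n. The cysteine codon is TGC in Usp4, Usp5 and Ube2c and TGT in Usp15, Usp9x and Ube2n.

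Ube2v1 and Ube2v2 encode E2 variants, which have the fold of an E2 without the active-site cysteine and work as partners of Ube2n. A search of the coding sequences found the codons of the USP cysteine box in 40 of 47 USP genes, the box being glycine, asparagine or alanine, threonine or serine, cysteine, then phenylalanine, tyrosine, tryptophan or leucine. The genes without a match were Usp18, Usp21, Usp39, Usp40, Usp47, Usp53 and Usp54, which says only that these codons are not in the transcript searched. The histidine, proline and asparagine codons that precede the E2 cysteine were found in 23 of 37 coding Ube2 genes, in Ube2u without the cysteine codon. The 14 without a match were Ube2v1, Ube2v2, Ube2cbp, Ube2e1, Ube2e2, Ube2e3, Ube2j1, Ube2j2, Ube2o, Ube2q1, Ube2q2, Ube2ql1, Ube2w and Ube2z. The lack of a match thus does not set the E2 variants apart from other Ube2 genes.

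Of the Ube2 entries, 34 reached 5 FPKM in at least 1 pool and of the USP entries 40 did; these are called measured below. Ube2d4 (a processed pseudogene) and Usp20, Usp26, Usp27x, Usp35, Usp43 and Usp51 peaked between 1 and 5 FPKM. Ube2d2b, Ube2dnl1, Ube2ql1, Ube2u and Usp18 were under 1 FPKM in every pool, and Ube2dnl2, Ube2l3-ps1, Ube2nl and Ube2uos were listed at 0. Usp18 removes the ubiquitin-like modifier ISG15, and its E2 counterpart Ube2l6 was measured (22.6 FPKM with VD3 plus MM-401, 25.8 with VD3 and 24.5 in untreated cells). GENCODE lists 37 of the Ube2 entries and all 47 USP entries as protein-coding.

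The measured Ube2 genes stood higher than the measured USP genes in every pool. The median Ube2 level was 65.0 FPKM with VD3 plus MM-401, 53.7 with VD3 and 40.4 in untreated cells. The median USP level was 16.1 FPKM with VD3 plus MM-401, 15.7 with VD3 and 24.2 in untreated cells. The Ube2 genes together held 0.365% of the estimated count with VD3 plus MM-401, 0.336% with VD3 and 0.311% in untreated cells. The USP genes together held 0.353% with VD3 plus MM-401, 0.386% with VD3 and 0.502% in untreated cells. By these sums the share of the Ube2 entries was higher in both treated pools than in untreated cells and that of the USP entries lower. The Ube2 sums include 3 loci that also name other coding genes (Ube2d2a, Ube2g2 and Ube2v1), and the USP sums 2 (Usp3 and Usp49). The Ube2g2 locus, which also names Sumo3, held 32849 of 247125 Ube2 counts with VD3 and 18402 of 193414 in untreated cells. The higher Ube2 share with VD3 can thus not be ascribed to Ube2 genes alone.

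**Figure D1:**
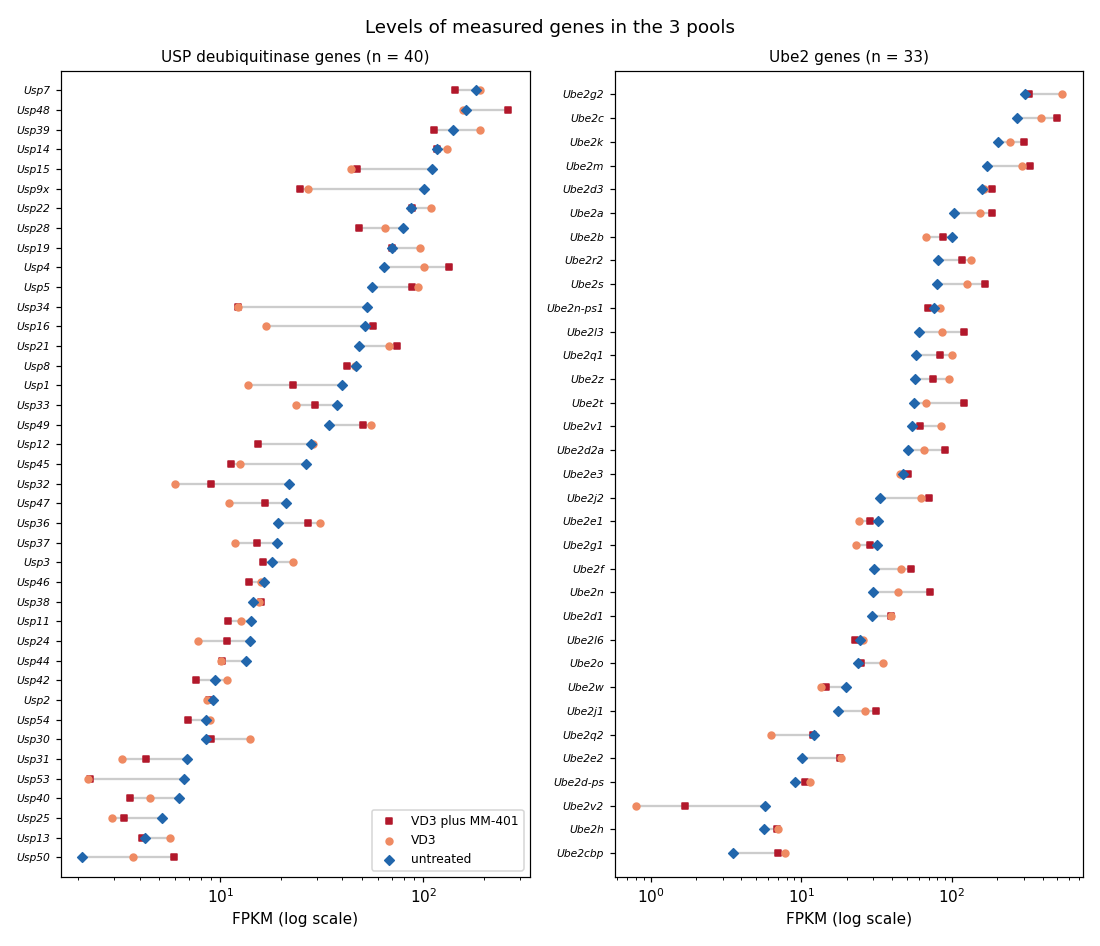
FPKM on a log axis for 40 measured USP genes (left) and 33 of 34 measured Ube2 genes (right), ordered by the level in untreated cells; squares stand for VD3 plus MM-401, circles for VD3 and diamonds for untreated cells. Usp9x, Usp34 and Ube2v2 have the treated symbols far left of the untreated diamond, while most Ube2 genes have them to the right.

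Differences below are log2 ratios after 1 FPKM was added to each level, so those of genes at low levels are understated. A gene entered a comparison if either of its 2 pools reached 5 FPKM. A gene was called where the difference was at least 2-fold and the authors' deposited confidence bounds, whose level is not given, did not overlap. Both comparisons with untreated cells use the same untreated pool, so a gene with an extreme untreated value differs in both.

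With VD3 against untreated cells, 1 of 34 Ube2 genes was called lower and none higher, and of 39 USP genes none was called in either direction. Over all 10910 genes tested, 4.22% were called lower and 0.926% higher, so the Ube2 count is no larger than the share over all genes. On 2-fold alone, without the bounds, 8 USP genes (20.5%) were lower and none higher, and 1 Ube2 gene was lower, beside 8.69% lower and 3.54% higher over all genes. The median difference was 0.51 over the Ube2 genes and -0.05 over the USP genes, with 0.36 over all genes. By estimated count these medians were 0.08, -0.29 and 0.13, so the Ube2 median lay above that of all genes by FPKM and below it by count, while the USP median lay below it by both. Above 0 lay 27 of 34 Ube2 genes (79.4%) and 17 of 39 USP genes (43.6%), beside 71.7% of all genes. Above the median gene lay 19 Ube2 genes and 8 USP genes. The middle part of each family, between its quartiles, ran between 0.09 and 0.64 for Ube2 and between -0.83 and 0.33 for USP.

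The gene called lower was Ube2v2 (GRCm38, chr16:15552077-15595773, minus strand, spanning the gene), whose product joins Ube2n to build ubiquitin chains used in signalling and DNA damage tolerance. It stood at 1.68 FPKM with VD3 plus MM-401, 0.798 with VD3 and 5.72 in untreated cells. The authors' bounds were 0.605 and 2.76 FPKM with VD3 plus MM-401, 0.407 and 1.19 with VD3, and 2.80 and 8.63 in untreated cells. The treated bounds thus ended just below the untreated ones with VD3 plus MM-401 and well below them with VD3. The estimated counts were 379 with VD3 plus MM-401, 225 with VD3 and 1246 in untreated cells, and the log2 difference was -1.32 with VD3 plus MM-401 and -1.90 with VD3 alone, both against untreated cells. Its transcript has 35.1% G and C, the lowest share of the measured members. A regression on GC content and length over all protein-coding genes was taken off, and the median difference of those genes was added back. The Ube2v2 differences were then 0.15 with VD3 plus MM-401 and 0.31 with VD3, so the call ended. Both lay below the medians added back, 0.26 with VD3 plus MM-401 and 0.36 with VD3, so neither stands for a rise.

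Neither Ube2n nor the other E2 variant, Ube2v1, shared the difference. Ube2n, the catalytic partner of both variants, stood at 71.8 FPKM with VD3 plus MM-401, 44.0 with VD3 and 29.7 in untreated cells. Ube2v1 stood at 60.8 FPKM with VD3 plus MM-401, 83.8 with VD3 and 54.0 in untreated cells, at a locus that also names the coding gene Tmem189, so its value cannot be ascribed to Ube2v1 alone. Ube2n had a log2 difference of 1.25 with VD3 plus MM-401 against untreated cells, the highest of the Ube2 genes, and the bounds overlapped (33.2 to 110.5 FPKM with VD3 plus MM-401 against 16.1 to 43.2 in untreated cells). By estimated count its difference was 0.67. The processed pseudogene Ube2n-ps1 spans 459 bases, the coding length of Ube2n, and stood at 69.2 FPKM with VD3 plus MM-401, 83.1 with VD3 and 75.9 in untreated cells. Reads of both genes may be shared between them, so either level is uncertain.

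**Figure D2:**
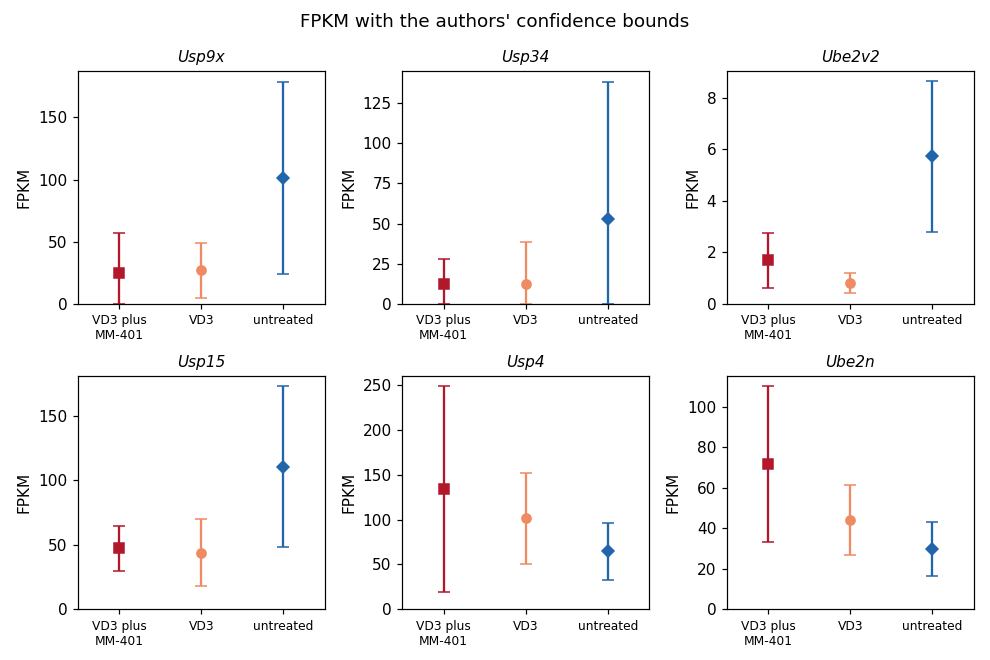
FPKM (vertical axis, from 0) of 6 genes in the VD3 plus MM-401, VD3 and untreated pools; points are the pooled values and bars the authors' lower and upper bounds. For Ube2v2 the treated bars lie below the untreated bar, while the bars of the other 5 genes overlap between every treated pool and untreated cells.

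Among the USP genes, Usp34 and Usp9x had the lowest differences from untreated cells in both treated pools. Usp9x (chrX:13071498-13173328, plus strand) is a very large X-linked enzyme that stabilises many proteins in early embryos. It stood at 24.7 FPKM with VD3 plus MM-401, 27.0 with VD3 and 101 in untreated cells, with log2 differences of -1.996 with VD3 plus MM-401 and -1.87 with VD3 against untreated cells. Usp34 (chr11:23306895-23490560, plus strand), known from human cells as a regulator of Wnt signalling through axin, stood at 12.3 FPKM with VD3 plus MM-401, 12.2 with VD3 and 52.7 in untreated cells. Its differences were -2.02 with VD3 plus MM-401 and -2.03 with VD3. For both genes the untreated value was about 4 times either treated value, and yet the bounds overlapped: the untreated bounds were 24.2 to 179 FPKM for Usp9x and 0 to 138 FPKM for Usp34. By estimated count, with bounds of 2 standard deviations from the authors' variance, both were 2-fold lower with the bounds apart in both treated pools. The counts of Usp9x were 5078 with VD3 plus MM-401, 6194 with VD3 and 23259 in untreated cells, and those of Usp34 3500 with VD3 plus MM-401, 3164 with VD3 and 15620 in untreated cells. By that measure 10 of 39 USP genes (25.6%) and 2 of 34 Ube2 genes were lower with VD3 against untreated cells, beside 9.32% of all genes, and none was higher, beside 0.192%. The 10 were Usp1, Usp9x, Usp15, Usp24, Usp31, Usp32, Usp34, Usp45, Usp47 and Usp53. Usp24 stood at 10.8 FPKM with VD3 plus MM-401, 7.76 with VD3 and 14.1 in untreated cells. Usp31 stood at 4.32 FPKM with VD3 plus MM-401, 3.27 with VD3 and 6.82 in untreated cells. The transcripts of Usp9x and Usp34 have 40.04% and 41.5% G and C. With GC content and length taken off, the differences of Usp9x were -0.68 with VD3 plus MM-401 and -0.06 with VD3. Those of Usp34 were -0.85 with VD3 plus MM-401 and -0.47 with VD3. These values hold the medians added back, 0.26 with VD3 plus MM-401 and 0.36 with VD3, which put every gene further from 2-fold lower. None was 2-fold lower on that scale, which does not show that none was without the added median.

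Other USP genes below untreated cells by 2-fold in a treated pool were Usp32, Usp16, Usp1, Usp15, Usp53 and Usp45. Usp32, which is bound to intracellular membranes, stood at 9.02 FPKM with VD3 plus MM-401, 6.00 with VD3 and 21.8 in untreated cells. Usp1, which with its cofactor Wdr48 acts on DNA repair proteins, stood at 22.7 FPKM with VD3 plus MM-401, 13.7 with VD3 and 39.7 in untreated cells. Usp45, linked in human cells to DNA repair, was at 11.4 FPKM with VD3 plus MM-401, 12.5 with VD3 and 26.5 in untreated cells, and Usp53 at 2.28 FPKM with VD3 plus MM-401, 2.22 with VD3 and 6.61 in untreated cells. The log2 differences with VD3 against untreated cells were -1.71 for Usp32, -1.47 for Usp1, -1.24 for Usp53 and -1.03 for Usp45. With VD3 plus MM-401 against untreated cells they were -1.19, -0.78, -1.21 and -1.15 in the same order of genes. In each of these 4 genes both treated pools were below the untreated pool. With GC content and length taken off and the median of 0.36 added back, their differences with VD3 ran between -0.87 (Usp1) and 0.52 (Usp45).

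The paralogues Usp4, Usp11 and Usp15 share a domain layout and did not share a direction. Usp15, which acts on TGF-beta receptor and SMAD signalling, stood at 47.1 FPKM with VD3 plus MM-401, 43.8 with VD3 and 111 in untreated cells. Its log2 difference was -1.21 with VD3 plus MM-401 and -1.32 with VD3 against untreated cells. Usp4 stood at 134 FPKM with VD3 plus MM-401, 101 with VD3 and 64.4 in untreated cells, with differences of 1.04 with VD3 plus MM-401 and 0.65 with VD3. The difference of Usp11 lay in between, with 10.9 FPKM with VD3 plus MM-401, 12.7 with VD3 and 14.2 in untreated cells. For Usp15 both treated pools were below the untreated pool, and for Usp4 both were above it, with overlapping bounds throughout. By estimated count the Usp4 difference with VD3 plus MM-401 was 0.16, while that of Usp15 was -1.33 with the bounds apart. The transcripts have 51.0% (Usp4), 51.2% (Usp11) and 42.3% (Usp15) G and C. With GC content and length taken off, the difference of Usp15 was -0.15 with VD3 plus MM-401 and 0.08 with VD3. That of Usp4 was 1.03 and 0.63. The Usp15 values lay below the medians added back, 0.26 and 0.36, and the Usp4 values above them.

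Several USP genes act on ubiquitin carried by histones. Usp16, a histone H2A deubiquitinase that mouse embryonic stem cells need for differentiation, stood at 56.8 FPKM with VD3 plus MM-401, 16.8 with VD3 and 51.6 in untreated cells. Its upper bounds reached 299.6 FPKM with VD3 plus MM-401, 110.3 with VD3 and 196 in untreated cells, so these levels do not order the pools. Usp22, the deubiquitinase of the SAGA complex, stood at 88.0 FPKM with VD3 plus MM-401, 109 with VD3 and 86.9 in untreated cells. Usp21, known in mouse embryonic stem cells to stabilise Nanog, stood at 74.1 FPKM with VD3 plus MM-401, 67.9 with VD3 and 48.0 in untreated cells. Usp44, which acts on histone H2B, stood at 10.2 FPKM with VD3 plus MM-401, 10.1 with VD3 and 13.3 in untreated cells. These 3 genes had overlapping bounds in all pools. Usp7, which stabilises Mdm2 and p53 among others, was the highest USP gene in untreated cells and stood at 144 FPKM with VD3 plus MM-401, 191 with VD3 and 182 in untreated cells. Usp3 and Usp49 also act on histones, but their loci also name other coding genes, Fbxl22 for Usp3 and Med20 for Usp49. The Usp3 locus stood at 16.2 FPKM with VD3 plus MM-401, 22.9 with VD3 and 18.0 in untreated cells. The Usp49 locus stood at 50.8 FPKM with VD3 plus MM-401, 55.5 with VD3 and 34.3 in untreated cells. Of the 7 measured genes of this role list, which has 9 symbols, none was called in any comparison. The other 2 were the X-linked Usp27x and Usp51, under 5 FPKM in every pool. Over all genes, 4.22% were called lower and 0.926% higher with VD3 against untreated cells. The shares were 2.69% and 4.26% with VD3 plus MM-401 against untreated cells, and 0.541% and 0.83% against VD3. At such shares, no call among 7 genes says little about this list.

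Of the genes that act at the proteasome and on free chains, Usp5 stood higher in both treated pools and Usp14 did not. Usp5, which takes apart free ubiquitin chains, stood at 87.9 FPKM with VD3 plus MM-401, 93.9 with VD3 and 55.8 in untreated cells. Usp14, which trims chains on the proteasome, stood at 117 FPKM with VD3 plus MM-401, 131 with VD3 and 117 in untreated cells. Usp13, a relative of Usp5, was low at 4.12 FPKM with VD3 plus MM-401, 5.64 with VD3 and 4.27 in untreated cells. Usp5 had the highest USP difference with VD3 against untreated cells, at 0.74, which is 0.38 above the median gene. Usp14 is a case of a transcript with low GC content (39.2%) and a difference near 0 (-0.00 with VD3 plus MM-401 and 0.17 with VD3 against untreated cells).

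Further USP genes among the highest and lowest differences were spread over other roles. Usp36, a nucleolar enzyme, stood at 27.0 FPKM with VD3 plus MM-401, 31.1 with VD3 and 19.2 in untreated cells. Usp30, on the outer mitochondrial membrane, stood at 8.96 FPKM with VD3 plus MM-401, 14.0 with VD3 and 8.46 in untreated cells. Usp19, at the endoplasmic reticulum, stood at 70.3 FPKM with VD3 plus MM-401, 96.1 with VD3 and 70.4 in untreated cells. These 3 genes were highest with VD3 alone. Usp12, a partner of Wdr48, stood at 15.3 FPKM with VD3 plus MM-401, 28.7 with VD3 and 27.9 in untreated cells. Usp39, a splicing factor without protease activity, stood at 113 FPKM with VD3 plus MM-401, 191 with VD3 and 140.4 in untreated cells. Usp12 and Usp39 were lowest with VD3 plus MM-401, with bounds that overlapped those of the other pools. Usp28, known for stabilising Myc, stood at 48.2 FPKM with VD3 plus MM-401, 65.2 with VD3 and 79.2 in untreated cells. Usp47, which acts in DNA repair, stood at 16.5 FPKM with VD3 plus MM-401, 11.0 with VD3 and 20.98 in untreated cells. Usp42 stood at 7.62 FPKM with VD3 plus MM-401, 10.8 with VD3 and 9.38 in untreated cells. Among the X-linked genes, Usp26 stood at 2.57 FPKM with VD3 plus MM-401, 1.43 with VD3 and 4.59 in untreated cells, with bounds apart between VD3 and untreated cells, but no pool reached 5 FPKM. Of the remaining measured USP genes (Usp2, Usp25, Usp33, Usp37, Usp38, Usp40, Usp46 and Usp54), the differences ran between -0.66 (Usp40) and 0.11 (Usp38) with VD3 plus MM-401, and between -0.66 (Usp25) and 0.08 (Usp38) with VD3, against untreated cells.

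For some members FPKM and estimated count gave different answers. Usp48 stood at 263 FPKM with VD3 plus MM-401, 156 with VD3 and 162 in untreated cells, while its estimated counts were 20476 with VD3 plus MM-401, 22496 with VD3 and 23426 in untreated cells. The FPKM difference with VD3 plus MM-401 against untreated cells was 0.70, and the count difference was -0.43. For Usp16 the same comparison gave 0.14 by FPKM and -1.06 by count, and for Ube2t 1.09 and 0.19. The sign by count was the other way for 9 of 34 Ube2 genes and 7 of 39 USP genes with VD3 against untreated cells. Usp50 (5.92 FPKM with VD3 plus MM-401, 3.72 with VD3 and 2.09 in untreated cells) had a difference of 1.16 with VD3 plus MM-401 against untreated cells, from bounds that start at 0. The annotated span of Usp50 overlaps that of Usp8 on the other strand, and the counting is not stated to use strand, so its reads cannot be told apart from those of Usp8 (42.3 FPKM with VD3 plus MM-401, 46.4 with VD3 and 46.8 in untreated cells).

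**Figure D3:**
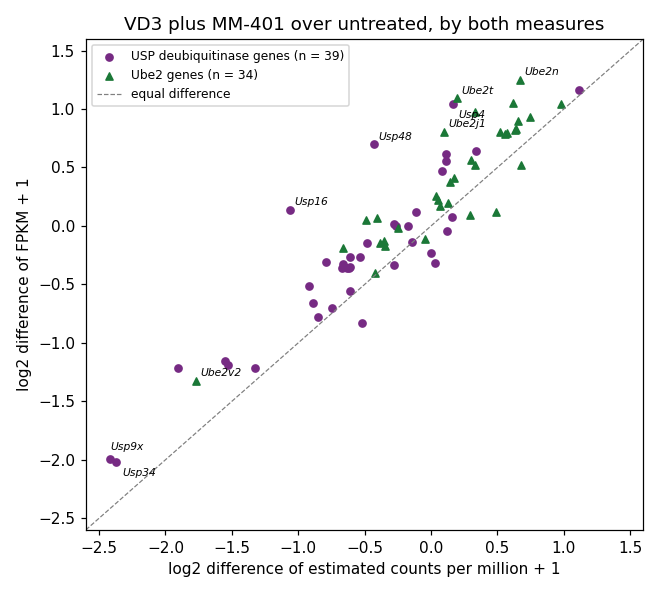
Log2 difference of FPKM + 1 (vertical axis) against that of estimated counts scaled to the pool total (horizontal axis), VD3 plus MM-401 over untreated, for the tested USP genes (circles) and Ube2 genes (triangles). Most points lie above the dashed line of equal difference; Usp16 and Usp48 lie above 0 by FPKM and below 0 by count.

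Among the E2 genes with known partners, both that serve the anaphase-promoting complex stood higher in the treated pools. Ube2c (chr2:164769898-164778822, plus strand), which starts the chains on mitotic targets, stood at 499 FPKM with VD3 plus MM-401, 387 with VD3 and 268 in untreated cells. Ube2s, which extends those chains, stood at 166 FPKM with VD3 plus MM-401, 125 with VD3 and 79.4 in untreated cells. Their log2 differences were 0.89 and 1.05 with VD3 plus MM-401 against untreated cells, beside a median of 0.27 over all genes. With VD3 against untreated cells they were 0.53 and 0.65, beside 0.36. By estimated count they were 0.66 and 0.62 with VD3 plus MM-401, beside 0.03, and 0.29 and 0.25 with VD3, beside 0.13. In both genes VD3 plus MM-401 was highest and untreated lowest, and the bounds of all pools overlapped.

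The E2 enzymes of ubiquitin-like modifiers and their relatives were also measured. Ube2m, which carries NEDD8 to most cullins, stood at 329 FPKM with VD3 plus MM-401, 290.5 with VD3 and 172 in untreated cells, and Ube2f, the other NEDD8 enzyme, at 53.4 FPKM with VD3 plus MM-401, 45.6 with VD3 and 30.5 in untreated cells. Both stood higher in either treated pool. With VD3 against untreated cells the differences were 0.76 for Ube2m and 0.57 for Ube2f, beside a median of 0.36 over all genes. Ube2t, the E2 of the Fanconi anaemia repair pathway, stood at 120.1 FPKM with VD3 plus MM-401, 66.8 with VD3 and 55.9 in untreated cells. Ube2l3, a partner of HECT and RBR ligases, stood at 120.2 FPKM with VD3 plus MM-401, 85.1 with VD3 and 60.5 in untreated cells.

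Enzymes at the endoplasmic reticulum, which serve the breakdown of misfolded proteins, stood above untreated cells in both treated pools for 3 of 4 entries, although Ube2g2 with VD3 plus MM-401 lay below the median gene. Ube2j2 stood at 70.2 FPKM with VD3 plus MM-401, 61.8 with VD3 and 33.5 in untreated cells, with a difference of 1.05 with VD3 plus MM-401 against untreated cells. Ube2j1 stood at 31.2 FPKM with VD3 plus MM-401, 26.5 with VD3 and 17.4 in untreated cells. Its differences were 0.81 with VD3 plus MM-401 and 0.58 with VD3 by FPKM, but 0.09 and -0.05 by estimated count. Ube2g2 was the highest Ube2 entry in untreated cells, at 322 FPKM with VD3 plus MM-401, 538 with VD3 and 302 in untreated cells, but its locus also names the coding gene Sumo3. Ube2g1 was the exception of the 4, at 28.5 FPKM with VD3 plus MM-401, 23.1 with VD3 and 31.7 in untreated cells.

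Closely related E2 genes differed in direction. Ube2a and Ube2b, the homologues of yeast RAD6, encode nearly the same protein. Ube2a (chrX:36873900-36884222, plus strand) stood at 184 FPKM with VD3 plus MM-401, 152 with VD3 and 103 in untreated cells, and Ube2b at 87.3 FPKM with VD3 plus MM-401, 67.3 with VD3 and 99.7 in untreated cells. Their differences with VD3 against untreated cells were 0.56 for Ube2a and -0.56 for Ube2b, and their transcripts have 42.1% (Ube2a) and 42.2% (Ube2b) G and C. The bounds of Ube2b start at 0 in every pool, so its direction is uncertain. In the UBE2E group, Ube2e2 stood at 18.1 FPKM with VD3 plus MM-401, 18.3 with VD3 and 10.1 in untreated cells. Ube2e1 stood at 28.5 FPKM with VD3 plus MM-401, 24.3 with VD3 and 32.3 in untreated cells. Ube2e3 stood at 51.3 FPKM with VD3 plus MM-401, 45.02 with VD3 and 47.3 in untreated cells. Of these, Ube2e2 was higher in both treated pools and Ube2e1 lower in both. In the UBE2D group, whose members work with many ligases, Ube2d3 stood at 185 FPKM with VD3 plus MM-401, 164 with VD3 and 159 in untreated cells. Ube2d1 stood at 39.1 FPKM with VD3 plus MM-401, 39.4 with VD3 and 29.2 in untreated cells. Ube2d2a was at 89.3 FPKM with VD3 plus MM-401, 64.7 with VD3 and 50.6 in untreated cells, at a locus that also names Cxxc5. The pseudogene Ube2d-ps was at 10.6 FPKM with VD3 plus MM-401, 11.5 with VD3 and 9.10 in untreated cells. These near-identical copies may share reads.

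Other E2 genes have single roles. Ube2k, which extends chains for the proteasome, stood at 298 FPKM with VD3 plus MM-401, 241 with VD3 and 201 in untreated cells, and Ube2z, which is charged by the E1 Uba6, at 74.5 FPKM with VD3 plus MM-401, 94.8 with VD3 and 57.1 in untreated cells. Ube2r2, which works with SCF ligases, was at 117 FPKM with VD3 plus MM-401, 133 with VD3 and 81.2 in untreated cells. These 3 genes were higher in both treated pools by FPKM. With VD3 against untreated cells, however, Ube2k had a difference of 0.26 by FPKM, below the median gene, and of -0.17 by estimated count. Ube2q1 stood at 83.6 FPKM with VD3 plus MM-401, 99.1 with VD3 and 57.9 in untreated cells. Its relative Ube2q2 stood at 11.9 FPKM with VD3 plus MM-401, 6.25 with VD3 and 12.1 in untreated cells. Ube2q2 was 2-fold lower by estimated count with VD3 against untreated cells (-1.14, bounds apart). Ube2o, a large enzyme with E2 and E3 activity, stood at 24.8 FPKM with VD3 plus MM-401, 34.6 with VD3 and 23.7 in untreated cells. Ube2w, which modifies amino termini, was at 14.6 FPKM with VD3 plus MM-401, 13.6 with VD3 and 19.6 in untreated cells, lower in both treated pools. Ube2h, the E2 of the CTLH ligase, was at 6.94 FPKM with VD3 plus MM-401, 6.97 with VD3 and 5.65 in untreated cells. Ube2cbp, which has the prefix but binds an E2, was at 7.03 FPKM with VD3 plus MM-401, 7.73 with VD3 and 3.54 in untreated cells and had the highest Ube2 difference with VD3, 0.95.

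**Figure D4:**
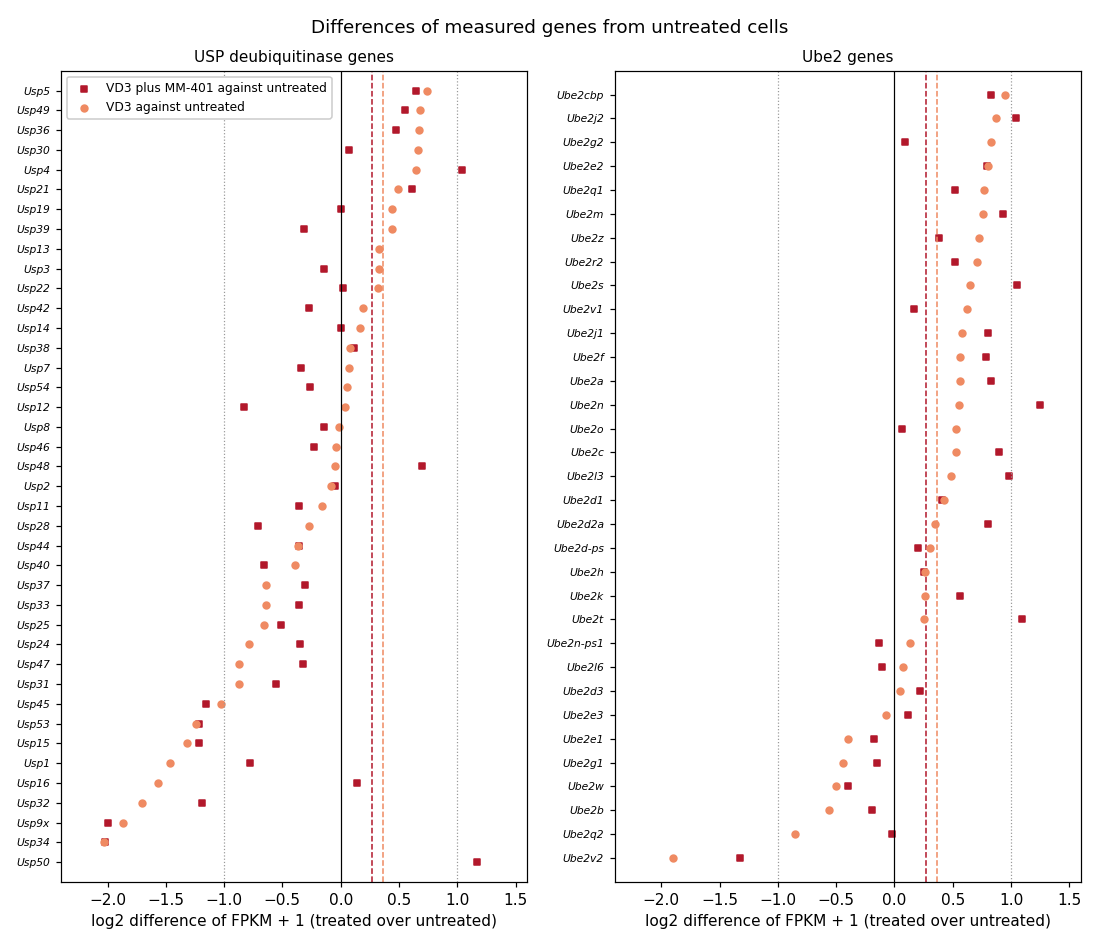
Log2 difference of FPKM + 1 of 39 tested USP genes (left) and 33 of 34 Ube2 genes (right) from untreated cells; squares are VD3 plus MM-401 and circles VD3. Dashed lines mark the median of all genes in each comparison and dotted lines 2-fold. With VD3, 8 of 39 USP circles and 18 of 33 drawn Ube2 circles lie right of the median.

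With VD3 plus MM-401 against untreated cells, Ube2v2 was again the 1 Ube2 gene called lower of 34, none was called higher, and no USP gene of 39 was called. Over all 10969 genes, 2.69% were called lower and 4.26% higher. On 2-fold alone, Ube2n, Ube2t, Ube2s and Ube2j2 were higher (4 of 34, 11.8%, beside 13.4% of all genes). Usp50 and Usp4 were higher and Usp34, Usp9x, Usp15, Usp53, Usp32 and Usp45 lower (6 of 39, 15.4%, beside 6.24% of all genes). The median difference was 0.39 over the Ube2 genes, -0.31 over the USP genes and 0.27 over all genes, and by estimated count 0.18, -0.53 and 0.03. Of the USP genes, 7 of 39 lay above the median gene, and of the Ube2 genes 18 of 34 did. By estimated count with bounds apart, 5 USP genes (Usp9x, Usp15, Usp32, Usp34 and Usp53) and 1 Ube2 gene (Ube2v2) were lower, beside 5.78% of all genes, and none was higher, beside 1.85%.

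With VD3 plus MM-401 against VD3, no gene of either family was called (33 Ube2 and 36 USP genes tested), beside 0.83% called higher and 0.541% lower over 10719 genes. The medians were 0.18 over the Ube2 genes, -0.13 over the USP genes and 0.02 over all genes. The only member past 2-fold was Usp16, at 1.70 by FPKM and 0.54 by count, beside 4.7% of all genes higher and 2.02% lower on 2-fold alone. By estimated count with bounds apart no member was called, beside 0.606% of all genes higher and 0.0933% lower. Next in size were Ube2t (0.84), Ube2q2 (0.83), Usp48 (0.75), Ube2n (0.70) and Usp1 (0.69) on the higher side. On the lower side were Usp12 (-0.86), Usp39 (-0.75), Ube2g2 (-0.74) and Usp30 (-0.59).

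The difference with VD3 varied with the base composition of the transcript. Among transcripts under 45% G and C, the median difference was -1.24 over 13 USP genes, 0.04 over 11 Ube2 genes and -0.56 over 1982 protein-coding genes. Between 45 and 50% it was -0.05, 0.26 and 0.28 over 13, 6 and 2298 genes, in the same order. From 50% up it was 0.44 over 11 USP genes, 0.71 over 12 Ube2 genes and 0.52 over 4516 genes. The share of a family under 45% was 35.1% for USP and 37.9% for Ube2, against 22.5% of all protein-coding genes, and the median transcript length under 45% was 6003 bases for USP and 3530 bases for Ube2. Spearman's rho of the difference with GC content was 0.75 across 37 USP genes, 0.63 across 29 Ube2 genes and 0.57 across 8796 genes. These genes share the same 2 pools and are not independent replicates. GC content and length were taken off by regression, with the median of the fitted genes (0.36) added back. The median was then 0.19 over the USP genes and 0.62 over the Ube2 genes, against 0.37 over all genes. Of 37 USP genes, 1, Usp16 (-1.04), remained 2-fold lower, beside 0.728% of the 8796 genes. The median added back puts every gene nearer to 2-fold higher and further from 2-fold lower. By the same measure 5 Ube2 genes of 29 were 2-fold higher, namely Ube2n (1.67), Ube2k (1.498), Ube2d3 (1.31), Ube2a (1.14) and Ube2j1 (1.09), as was 1 USP gene, Usp14 (1.62), beside 5.78% of the 8796 genes. None of these 6 was 2-fold higher before the adjustment. With VD3 plus MM-401 against untreated cells, 7 of 29 Ube2 genes and 1 of 37 USP genes (Usp4) were 2-fold higher after it, beside 7.21% of genes, and no member was 2-fold lower, beside 1.43%. The part of base composition in these differences was not tested.

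**Figure D5:**
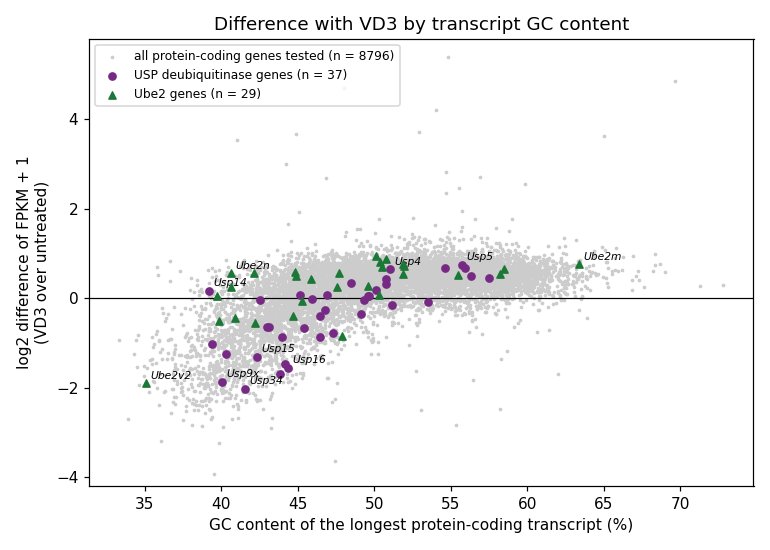
Log2 difference of FPKM + 1, VD3 over untreated (vertical axis), against the GC content of the longest protein-coding transcript in percent; grey points are all protein-coding genes tested, circles USP genes and triangles Ube2 genes. The points fall away below 45% G and C, where Usp9x, Usp34, Usp15 and Ube2v2 lie, and Ube2n and Usp14 lie above 0 there.

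The activating enzymes upstream of the E2 genes included 2 called genes of 9 measured. Uba3, the catalytic subunit of the NEDD8 E1, stood at 35.2 FPKM with VD3 plus MM-401, 25.1 with VD3 and 78.0 in untreated cells. Uba6, which charges Ube2z, stood at 6.78 FPKM with VD3 plus MM-401, 8.49 with VD3 and 25.8 in untreated cells. Both were called lower in either treated pool against untreated cells, with differences of -1.12 for Uba3 and -1.79 for Uba6 with VD3 plus MM-401, and of -1.60 for Uba3 and -1.497 for Uba6 with VD3. Over all genes, 2.69% were called lower with VD3 plus MM-401 and 4.22% with VD3. The median over the 9 genes was 0.10 with VD3 plus MM-401 and 0.36 with VD3, and over all genes it was 0.27 with VD3 plus MM-401 and 0.36 with VD3. The other subunit of the NEDD8 E1, Nae1, stood at 95.0 FPKM with VD3 plus MM-401, 57.4 with VD3 and 111 in untreated cells, and Uba1, the main ubiquitin E1, at 369.6 FPKM with VD3 plus MM-401, 446 with VD3 and 335 in untreated cells. Among 9 measured ubiquitin and ubiquitin-like genes, Nedd8 was called higher with VD3 plus MM-401 against untreated cells, beside 4.26% of all genes. It stood at 699 FPKM with VD3 plus MM-401, 522 with VD3 and 317 in untreated cells. With VD3 plus MM-401 against VD3, 1 other gene of this list was called higher, beside 0.83% of all genes. Of the deubiquitinases outside the USP symbols, 23 were tested in each comparison with untreated cells and 21 with VD3 plus MM-401 against VD3. None was called. Over all genes, 4.22% were called lower and 0.926% higher with VD3, and 2.69% and 4.26% with VD3 plus MM-401, against untreated cells. With VD3 plus MM-401 against VD3 the shares were 0.541% and 0.83%.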

How the data were processed

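RNA purified with RNeasy columns and treated with DNase went into TruSeq libraries, per the labels' protocols. The submitters' processing notes name the build mm10 and the tools Cufflinks 2.2.1, TopHat2 2.1.1 and SAMtools 1.5, without order, settings or strand. Per the file headers, the deposited tables hold FPKM with lower and upper bounds, and estimated counts with a variance, used here only as a score of precision, for 62490 loci. Each group has 1 pooled column, so the planned test per library was replaced by 2-fold calls with bounds apart, and no p-value is given. The depth is the pooled total of each column, FPKM bounds are the authors' own, and count bounds are 2 standard deviations from the authors' variance.

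Loci of equal name were added up, and 14 loci without a valid status were left out. Calls needed at least 5 FPKM in the higher pool. Alternatives used a pseudocount of 0.1 in place of 1 FPKM, a filter of 1 FPKM, 2-fold alone, centring, estimated counts scaled to the pool total, loci with several names left out, and a regression on GC content and length. Named were every called member, the 6 highest and 6 lowest differences per family and comparison, the 6 highest untreated levels per family, and members of role lists; some items that this rule would name are not reported or drawn here. Members and lists were chosen with earlier results of these data known. After the regression, the median difference of the genes fitted was added back to each residual. The call rule was checked on a copy of the untreated pool with planted differences and no added noise, which cannot give its error rate. The regression was checked on simulated data. Python 3.11.15, NumPy 2.4.6, pandas 2.3.3 and SciPy 1.17.1 were used, with GENCODE M21 for coordinates and sequences.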

Additional observations from a re-analysis of the deposited data

How the results depend on the processing

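Of 3 comparisons, each with counts and medians of both families, no value changed its call or direction when differences were centred on the median gene, when the pseudocount was 0.1 FPKM, or when loci with several names were left out. With VD3 against untreated cells, the number of USP genes lower (0) was 1 with a filter of 1 FPKM (Usp26), 8 on 2-fold alone and 10 by estimated count, and the number of Ube2 genes lower (1) was 2 by count and 0 with GC content and length taken off, where the USP median was 0.19 in place of -0.05. With VD3 plus MM-401 against untreated cells, 2-fold alone gave 4 Ube2 genes higher, 2 USP genes higher and 6 lower; estimated counts gave 5 USP genes lower; and with GC content and length taken off no Ube2 gene was lower (0) and the USP median was 0.087 in place of -0.31. Ube2v2 then stood at 0.15 with VD3 plus MM-401 and 0.31 with VD3, both below the median added back after the regression. The adjusted USP medians hold that added median as well. Over all protein-coding genes the adjusted median was 0.245 with VD3 plus MM-401 and 0.372 with VD3, so both USP medians still lay below it. With VD3 plus MM-401 against VD3, 2-fold alone gave 1 USP gene higher, and the adjusted Ube2 median was -0.0044 in place of 0.18. The cause of these shifts was not tested. No paired analysis was possible because each group has 1 pooled column, and leaving out a replicate could not be run for the same reason. A member whose lower FPKM bound is 0 in the higher pool cannot be called by the FPKM bounds.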

Other observations

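The ligases that work with these E2 enzymes were read from lists of symbols. Of 18 measured HECT ligases, Itch, which acts in immune regulation, and Wwp1, a relative of it, were called lower with VD3 against untreated cells, and Wwp1 also with VD3 plus MM-401. Over all genes, 2.69% were called lower with VD3 plus MM-401 and 4.22% with VD3. Itch stood at 9.84 FPKM with VD3 plus MM-401, 6.96 with VD3 and 18.3 in untreated cells, and Wwp1 at 4.05 FPKM with VD3 plus MM-401, 3.69 with VD3 and 16.3 in untreated cells. The HECT median difference was -0.33 with VD3 plus MM-401 and -0.32 with VD3 against untreated cells, where the median over all genes was 0.27 with VD3 plus MM-401 and 0.36 with VD3.

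Of 13 measured cullin-RING genes, the RING subunits Rbx1 and Rnf7 were called higher with VD3 plus MM-401 against untreated cells, and the scaffold Cul4b was called lower with VD3. Over all genes, 4.26% were called higher with VD3 plus MM-401 and 4.22% lower with VD3. The median over the 13 genes was 0.46 with VD3 plus MM-401 and -0.18 with VD3, where over all genes it was 0.27 and 0.36. By estimated count the cullin-RING median was -0.19 with VD3 plus MM-401 and -0.54 with VD3, where over all genes it was 0.03 and 0.13. The sign with VD3 plus MM-401 thus depended on the measure. Rbx1 stood at 99.4 FPKM with VD3 plus MM-401, 68.6 with VD3 and 34.0 in untreated cells, and Rnf7 at 119 FPKM with VD3 plus MM-401, 99.9 with VD3 and 55.7 in untreated cells. Cul4b stood at 86.7 FPKM with VD3 plus MM-401, 69.4 with VD3 and 160.3 in untreated cells. Ube2m and Ube2f deliver NEDD8 to cullins together with these RING subunits.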
